A study of Drosophila melanogaster with 2 samples.

Results

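The genes described here encode the machinery that starts transcription by RNA polymerase II: Mediator, the general transcription factors and the polymerase itself. They were chosen by symbol from the protein-coding genes of the Ensembl annotation of *Drosophila melanogaster*, as every gene whose symbol starts with MED or Taf and a digit, with TfII or with Polr2, plus Tbp. This gave 63 of 13968 protein-coding genes, made up of 25 Mediator genes, 16 genes of TFIID (Tbp and the Taf genes), 9 TfII genes and 13 Polr2 genes. The rule reads symbols only and no signal or peak.

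The measurement was chromatin immunoprecipitation followed by sequencing (ChIP-seq), which recovers the DNA bound to a protein. The protein was toe (twin of eyegone), a Pax-like transcription factor, and it was recovered from whole adult male flies of unknown age. There was 1 group, with biological replicates numbered 2 and 3. All flies came from a transgenic line, toe-GFP, that stably expresses toe with a green fluorescent protein at its C-terminus, and the precipitation used an antibody against that tag. The labels do not give the promoter that drives the fusion, how many flies were pooled, or which cells carry it, so a peak here is an average over all tissues of the fly. No untagged or untreated flies were analysed here, and the depth is unknown because no file gives read counts.

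RNA polymerase II cannot find a promoter alone. TFIID, built of the TATA-binding protein Tbp and its associated Taf proteins, recognises the core promoter. TFIIA and TFIIB stabilise it there, TFIIF brings the polymerase, and TFIIE and TFIIH help to open the DNA. Mediator is a large complex with head, middle and tail modules that passes contacts from sequence-specific activators to the polymerase. Most of these genes are needed in nearly every cell, and the results below concern toe at the promoters of the genes themselves, not at the promoters where their products act.

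A gene was called bound when the summit of a peak in the authors' reproducible list lay within 500 bp of any of its annotated start sites. That list held 3469 peaks on dm6, numbered here from rank 1, the highest signal, downwards. The signal is the authors' own value on a scale that the files do not name, and it served only to rank and describe peaks within 1 list. It ran from 58.2 to 3277.7 with a median of 102.

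The DNA under the highest peaks is shown first, because the values that follow refer to it. Each sequence covers up to 100 bp either side of the summit, trimmed where annotated exons begin, on the strand of the named gene, from the RefSeq copy of the dm6 assembly. MED27 lies at chr3R:5654892-5655092 on the plus strand, MED30 at chr3L:654165-654362 on the minus strand, and MED7 at chr3R:10761033-10761147 on the minus strand. All are intergenic. Polr2H, whose peak ranked between those of MED30 and MED7, had its summit in an annotated exon and is not shown.
MED27: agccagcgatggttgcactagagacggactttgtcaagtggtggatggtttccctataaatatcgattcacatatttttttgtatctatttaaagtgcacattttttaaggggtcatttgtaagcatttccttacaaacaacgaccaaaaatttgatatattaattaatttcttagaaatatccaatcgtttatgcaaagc
MED30: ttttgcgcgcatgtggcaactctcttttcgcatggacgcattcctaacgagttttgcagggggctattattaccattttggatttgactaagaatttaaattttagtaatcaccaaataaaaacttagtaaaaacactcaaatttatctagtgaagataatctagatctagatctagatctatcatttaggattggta
MED7: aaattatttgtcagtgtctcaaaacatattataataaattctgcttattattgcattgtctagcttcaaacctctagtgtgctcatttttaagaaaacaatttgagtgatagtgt

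These windows are rich in A and T. Over the windows at the 25 member summits, G and C made up 34.5% of the bases, against 37.1% at all 2289 promoter peaks and 41.5% at the start sites of all protein-coding genes. The letters TATAAA, the core of the TATA box, occurred on either strand within 100 bp of 13 of the 25 summits (52%). They occurred at 35.9% of all promoter peaks and at 29.2% of all protein-coding start sites. At the members' own start sites they occurred at 32% of the bound and 39.5% of the unbound genes. G and C made up 38.9 and 37.9% of the bases there. TATAAA holds only A and T, and these shares were neither adjusted for base composition nor tested.

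Of the 63 genes, 25 had a promoter peak (39.7%, 95% Wilson interval 28.5 to 52%). Over all protein-coding genes, 2701 of 13968 were bound (19.3%). The 25 genes had 25 distinct peaks, so no peak was counted for more than 1 of them. The signal at the bound genes had a median of 164 and ran from 60.2 at Taf2 to 549 at MED27, and the median over all bound protein-coding genes was 135. Intervals cover the counting of genes only, and no test was made of the list, whose genes are not independent of each other (Taf10 and Taf10b, for example, share 1 divergent promoter).

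Each complex had bound and unbound genes. The shares were 11 of 25 for Mediator (44%, 26.7 to 62.9%), 6 of 16 for TFIID (37.5%, 18.5 to 61.4%), 3 of 9 for the TfII genes (33.3%, 12.1 to 64.6%) and 5 of 13 for the polymerase (38.5%, 17.7 to 64.5%). The intervals of the complexes overlapped each other, so no order among them could be read from these counts. The interval for Mediator lay above the share of all protein-coding genes, and those for the other complexes included it. For Mediator this depended on the call rule. Without replicate 2, 8 of 25 were bound (32%, 17.2 to 51.6%, against 19.7% of all genes), and the same count came from peaks overlapping a region of each replicate (against 18.9%). With each peak given only to its nearest start site, 5 of 25 were (20%, 8.86 to 39.1%, against 14.2%). The interval for Mediator included the share of all genes under each of these rules. Those for TFIID and the polymerase moved too. With 1 start site per gene, TFIID (18.5 to 61.4%) and the polymerase (17.7 to 64.5%) lay above the 17.4% of all genes. So did TFIID without replicate 3 (23.1 to 66.8%, against 21.1%) and the polymerase with a limit of 200 bp (17.7 to 64.5%, against 14.4%).

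**Figure D1:**
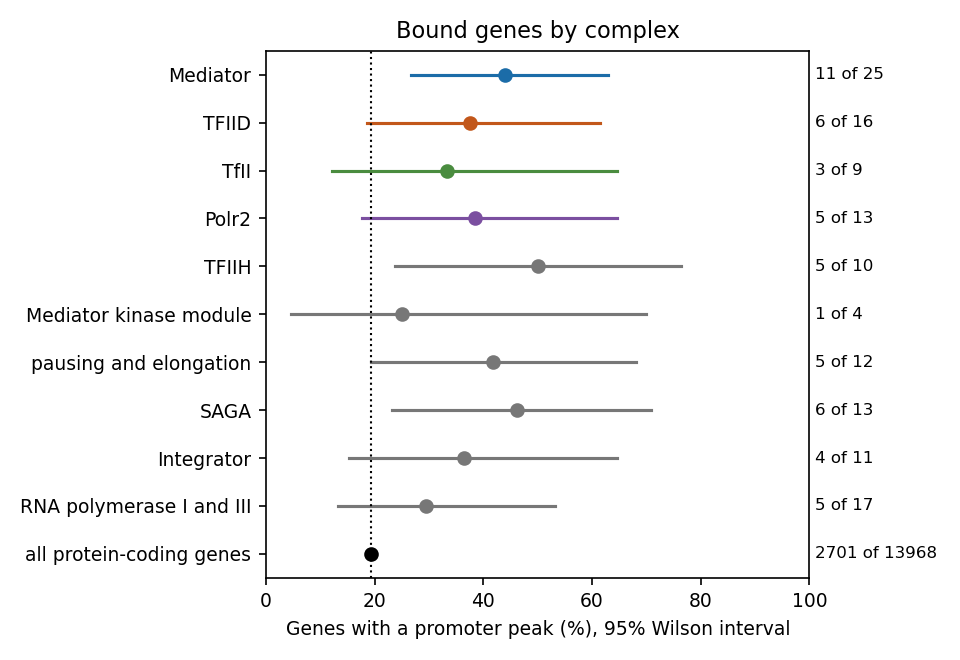
Share of genes with a promoter peak (%) in each complex and in related gene lists. Points are shares, lines are 95% Wilson intervals, counts stand at the right and the dotted line is the share of all protein-coding genes (19.3%). Mediator (44%), TFIID (37.5%), the TfII genes (33.3%) and the polymerase (38.5%) all have points to the right of that line.

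The 2 highest peaks of all these genes were called at Mediator genes, MED27 and MED30. Both summits lay nearer to the start of another gene, elm at MED27 and Rev1 at MED30. The complex as a whole was not the highest. The median signal at bound genes was 127 for Mediator, 115 for TFIID, 175 for the TfII genes and 234 for the polymerase, against 135 for all bound protein-coding genes. At MED27 (FBgn0037359, gene at chr3R:5655139-5656336, plus strand) the signal was 358 in replicate 2 (rank 67) and 190 in replicate 3 (rank 142). In the reproducible list it was 549, rank 90 of 3469, and the summit lay 147 bp upstream of the start site. At MED30 (FBgn0035149, gene at chr3L:652987-654089, minus strand) the signal was 291 in replicate 2 (rank 116) and 212 in replicate 3 (rank 103). The reproducible peak had a signal of 507, rank 107, with the summit 176 bp upstream. Both genes ranked among the strongest regions of each library.

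At MED7 (FBgn0051390, gene at chr3R:10760071-10761032, minus strand), a middle subunit, the signal was 329 and the rank 275, with the summit 42 bp upstream. The region ranked 242 in replicate 2 with a signal of 208, but the peak overlapped no region of replicate 3. The 2 libraries therefore went apart at this gene. Each of MED27, MED30 and MED7 shares its summit with another gene, elm for MED27, Rev1 for MED30 and Cap-H2 (a condensin subunit) for MED7.

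The other bound Mediator genes lay lower. MED16, a tail subunit, had a signal of 169 (rank 920) and replicate ranks of 844 and 1411. MED17, a head subunit that contacts the polymerase, had 166 (rank 945), with replicate ranks of 1266 and 872. MED6, in the head, had 127 (rank 1310; 1681 in replicate 2). Its summit lay 40 bp downstream of 1 of its 5 start sites, an internal one, and 522 bp from the 5′ end of the gene. It was the single downstream summit among the 25, and its peak overlapped no region of replicate 3.

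MED31 had a signal of 123 (rank 1371), MED8 116 (rank 1467), MED4 103 (rank 1712), MED25 91.2 (rank 2017) and MED21 70.7 (rank 2749). These 5 genes had replicate 2 ranks of 1376, 1669, 2252, 1975 and 1636. MED31, MED8, MED4 and MED25 ranked 1685, 1953, 1730 and 3693 in replicate 3, and the peak at MED21 overlapped no region of it. MED8 (376 bp upstream) and MED25 (343 bp) had the summits farthest from their start sites.

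By module, as known from yeast and mammals, 3 of 7 head genes were bound (MED6, MED8 and MED17), as were 4 of 7 middle genes (MED4, MED7, MED21 and MED31). In the tail, 1 of 4 was bound (MED16). Of the 7 others, 3 were bound (MED25, MED27 and MED30). Numbers this small do not separate the modules.

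**Figure D2:**
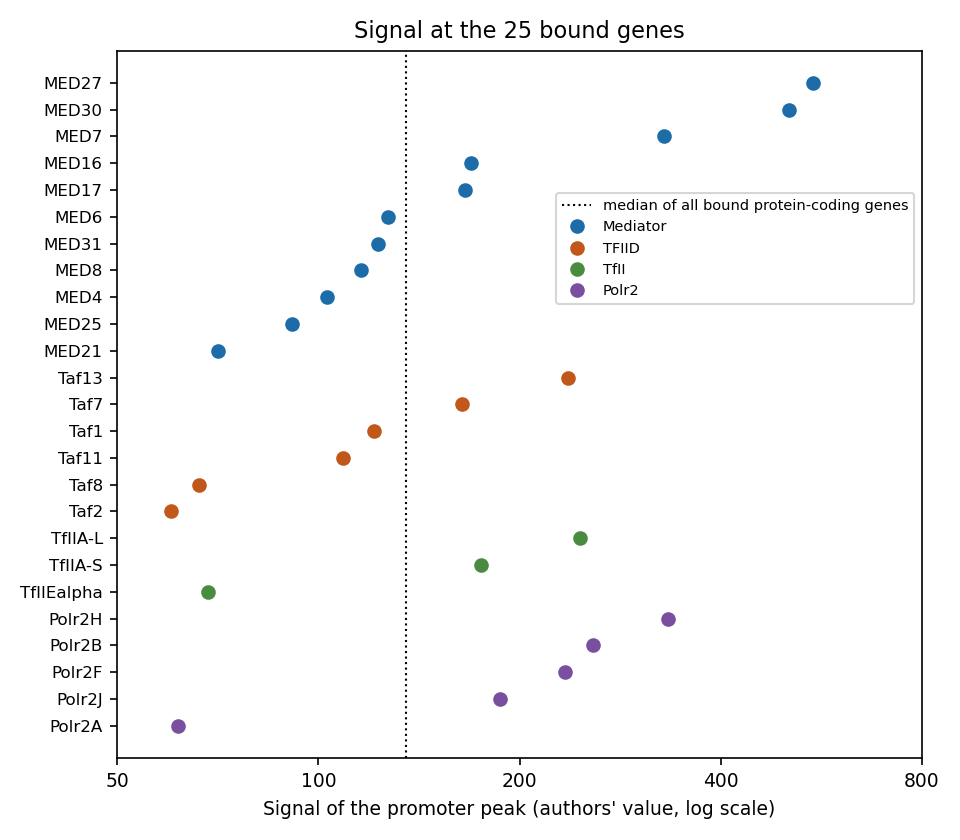
Signal of the promoter peak at each of the 25 bound genes (authors' value, log scale), coloured by complex. The dotted line is the median over all bound protein-coding genes (135). MED27 (549) and MED30 (507) stand at the right, and Taf2 (60.2) and Polr2A (61.6) at the left.

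In TFIID, Taf13 (gene at chr2L:20093088-20093849, minus strand) had the highest signal, 131 in replicate 2, 107 in replicate 3 and 236 in the reproducible list (rank 534). Its summit lay 163 bp upstream and nearer to the start of nesd, and its replicate ranks were 611 and 473. Taf13 and Taf11 form a histone-fold pair in TFIID, and both were bound, Taf11 with a signal of 109 (rank 1602). Taf7, a partner of Taf1, had 164 (rank 962), and Taf1, the largest subunit, had 121 (rank 1391). The summits lay 183 bp upstream at Taf11, 122 bp at Taf7 and 79 bp at Taf1. Replicate ranks were 1556 and 2091 at Taf11, 843 and 1424 at Taf7, and 1810 and 1418 at Taf1. Taf8 had a signal of 66.3 (rank 2971; 2701 and 5405 in the replicates) with the summit 47 bp upstream, and Taf2, which contacts the Initiator element, had 60.2 (rank 3328). Taf4, Taf12, Taf6, Taf9, Taf3, Taf10 and Taf10b had no reproducible peak, and neither did Tbp or Taf5. Nor did Taf12L, a testis paralogue that was counted with TFIID by its symbol.

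Taf2 and Polr2A were the weakest of the bound genes. Taf2 had a q-value of 0.0867 and Polr2A one of 0.0768, so neither passed 0.05, while the other 23 of 25 did (92%, against 92.2% of all bound protein-coding genes). Taf2 ranked 2493 in replicate 2 but 7136 in replicate 3. Polr2A ranked 4458 and 3636. MED26 stood just outside the reproducible list, with a pooled signal of 57.0.

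Among the TfII genes, both main subunits of TFIIA were called bound, TfIIA-L at an internal start site. TfIIA-L (gene at chr3R:27251112-27256463, plus strand), which encodes the large precursor, had a signal of 148 in replicate 2, 99.6 in replicate 3 and 246 in the reproducible list (rank 488). Its summit lay 158 bp upstream of an internal start site, 2160 bp inside the gene from its 5′ end and nearer to the start of pll, and its replicate ranks were 507 and 544. With 1 start site per gene, at the 5′ end, TfIIA-L was not bound. TfIIA-S had 175 (rank 866), a summit 112 bp upstream and replicate ranks of 845 and 1079, while its paralogue TfIIA-S-2 was unbound, with the nearest summit 21623 bp away. TfIIEalpha had a signal of 68.4 (rank 2871; 3510 and 3070 in the replicates) with the summit 172 bp upstream, and its partner TfIIEbeta was unbound. TfIIB, both TFIIF genes (TfIIFalpha and TfIIFbeta) and the elongation factor gene TfIIS had no reproducible peak.

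Within the polymerase, Polr2H (gene at chr3L:21728932-21729694, plus strand) led with a signal of 193 in replicate 2, 134 in replicate 3 and 334 in the reproducible list (rank 267, summit 148 bp upstream). Its summit lay nearer to the start of CG11247, and its replicate ranks were 288 and 291. Polr2B, the second-largest subunit, which forms the active centre together with Polr2A, had 258 (rank 449; 519 and 401 in the replicates). Polr2F had 234 (rank 539; 554 and 632) and Polr2J 187 (rank 780; 894 and 727). The summits of Polr2B, Polr2F and Polr2J lay 64, 59 and 50 bp upstream. Polr2A, the largest subunit, which carries the C-terminal repeat domain, was lowest at 61.6 (rank 3237). Of the 5 genes for subunits shared with RNA polymerases I and III, 2 were bound (Polr2F and Polr2H). Of the 8 other genes with a Polr2 symbol, Polr2M among them, 3 were bound.

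The replicates ranked the bound genes alike. At 22 of the 25 peaks a region was present in both replicates, and Spearman's rho of their ranks was 0.925. It is given only as a description, since these peaks passed the authors' reproducibility cut on the same libraries. The rank was higher in replicate 2 at 13 genes and in replicate 3 at 9. All 25 peaks overlapped a region of replicate 2, and 22 (88%) overlapped one of replicate 3. Over the whole reproducible list, 22 peaks (0.634%) lacked a region of replicate 2 and 52 (1.5%) one of replicate 3. MED6, MED7 and MED21 were the bound genes without one.

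**Figure D3:**
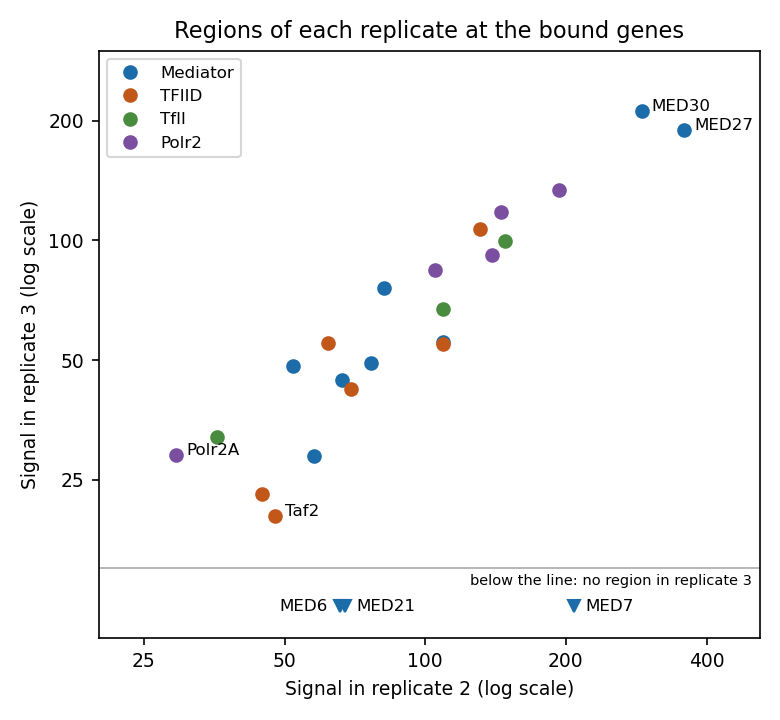
Signal in replicate 2 against signal in replicate 3 at the bound genes (authors' values, log scales). Triangles below the line are peaks with no region in replicate 3 (MED6, MED7 and MED21), and MED27 (358 and 190) and MED30 (291 and 212) lie at the upper right.

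Among the 38 unbound genes, 25 had no region of any list within 500 bp of a start site. Another 5 had a weaker region of the pooled list in reach (13.2%), against 28% of all unbound protein-coding genes. These were MED26 (signal 57.0), TfIIS (51.1), MED23 (47.7), MED10 (42.6) and Polr2K (20.8). The distance from an unbound gene to the nearest reproducible summit had a median of 5935 bp. It ran from 523 bp at MED15 to 109577 bp at Taf12L. MED15 and MED19 (530 bp) lay just beyond the 500 bp limit, next to peaks with signals of 204 and 112.

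The nearest summit was 3531 bp away for MED28, 3774 bp for MED14, 4433 bp for MED24, 6447 bp for MED1, 7218 bp for MED22, 9111 bp for MED9, 10826 bp for MED11, 14495 bp for MED18 and 24748 bp for MED20. In TFIID it was 1717 bp away for Taf10b, 1762 bp for Taf10, 2734 bp for Taf9, 3690 bp for Tbp, 4863 bp for Taf5, 5594 bp for Taf12, 7470 bp for Taf4, 8465 bp for Taf6 and 19798 bp for Taf3. The peak nearest to Taf6 was the strongest of the whole list (signal 3278). The distances for the TfII genes were 4197 bp for TfIIEbeta, 6276 bp for TfIIFalpha, 6730 bp for TfIIFbeta and 83422 bp for TfIIB. Those for the polymerase were 2102 bp for Polr2C, 2728 bp for Polr2M, 4087 bp for Polr2G, 12738 bp for Polr2D, 14334 bp for Polr2I, 24250 bp for Polr2E and 36197 bp for Polr2L. None of these genes therefore sat close to the 500 bp limit.

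In 8 unbound genes a replicate's list held a region in reach where the pooled list held none. The strongest was at Taf4, which ranked 242 in replicate 3 with a signal of 143 and had no region in reach in replicate 2. The region at Tbp ranked 2553 in replicate 2 and that at MED24 ranked 3248 in replicate 3. The regions at Taf4, Tbp and MED24 overlapped no region of the pooled list. Among the 3469 strongest regions of each replicate, 300 (8.65%) in replicate 2 and 295 (8.5%) in replicate 3 overlapped no pooled region.

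Summits lay upstream of the start site and close to it. The summit was upstream at 24 of 25 genes (96%, against 87.1% of all bound protein-coding genes) and within 200 bp at 22 (88%, against 70.8%). The median position was 147 bp upstream, and it was 131 bp upstream over all bound genes. These distances are to the nearest start site of the gene, which was internal to the gene at MED6, Taf7 and TfIIA-L. By the annotation, 14 summits were intergenic, 8 lay in an exon and 3 in an intron. The exons and introns can belong to the neighbouring gene.

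**Figure D4:**
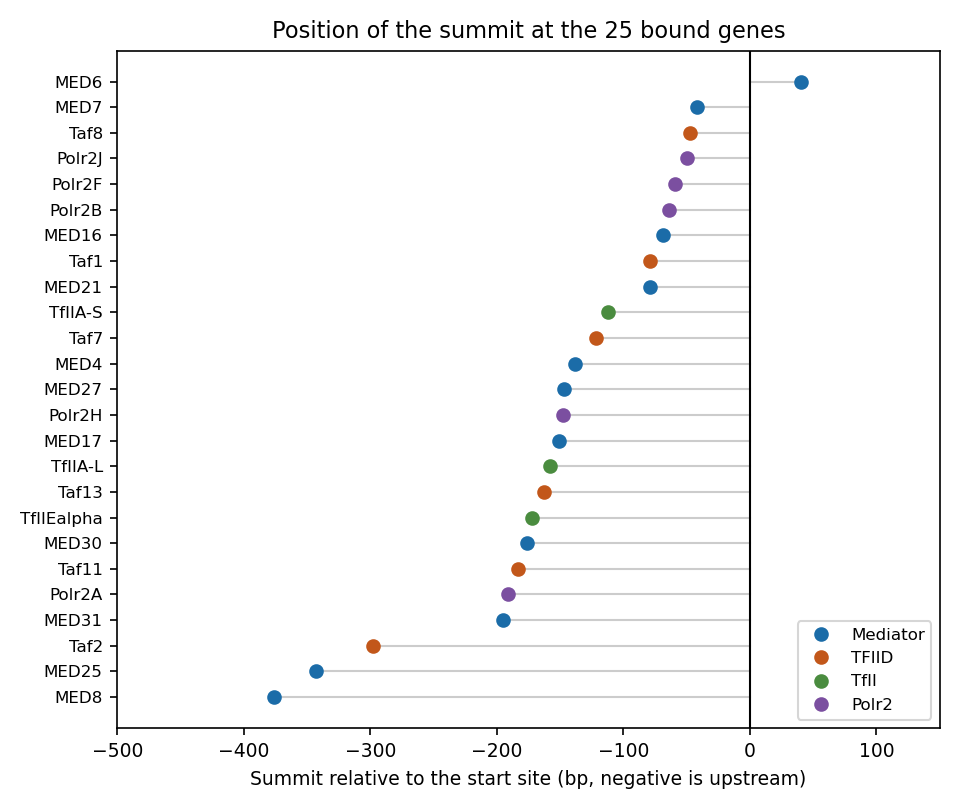
Position of the summit relative to the start site (bp, negative is upstream) at the 25 bound genes, coloured by complex. Only MED6 (40 bp) lies downstream, and MED8 (376 bp), MED25 (343 bp) and Taf2 (298 bp) lie farthest upstream.

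Many of these genes start close to a gene on the other strand. A divergent partner, meaning another protein-coding gene that starts within 500 bp in the opposite direction, was present at 38 of the 63 genes (60.3%), against 27.3% of all protein-coding genes. Of the genes with a partner, 18 of 38 were bound (47.4%, 32.5 to 62.7%). That interval includes the 36.1% of all genes with a partner. Of those without one, 7 of 25 were bound (28%, 14.3 to 47.6%, against 13%). The partner was itself bound at 16 of the 18 bound genes, and at 1 of the unbound ones (CG7430, next to MED19). This contrast was largely set by the definitions, because 1 summit near a close pair is usually in reach of both starts. The same share over all protein-coding genes is not given here. The gap need not hold the summit. At Taf2 the gap was 79 bp and the summit lay 298 bp upstream of its start site. Summits within the gaps were not counted.

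The same peak therefore often counts for a neighbour too. At 18 of 25 genes (72%) the summit was in reach of another gene, against 60.1% of all bound genes. At 12 the summit was nearer to another gene (MED4, MED8, MED25, MED27, MED30, MED31, Polr2A, Polr2H, Taf2, Taf11, Taf13 and TfIIA-L). At 7, namely MED6, MED21, Polr2F, Taf1, Taf8, TfIIA-S and TfIIEalpha, no other gene was in reach. ChIP-seq does not show which gene of a pair a bound site serves. Where each peak was given only to the gene of its nearest start site, 13 of the 63 genes were bound (20.6%, 12.5 to 32.2%), against 14.2% of all protein-coding genes, which that interval includes. This rule lowered the bound members from 25 to 13 and all bound protein-coding genes from 2701 to 1986. A larger part of the members was therefore lost.

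The distance between paired start sites was compared next, without a test. Over the members with a partner, the gap had a median of 251 bp at bound genes and 127 bp at unbound ones. With a gap under 100 bp, 2 of 11 genes were bound (18.2%, 5.14 to 47.7%), namely MED6 and Taf2, and with a gap of 100 to 500 bp, 16 of 27 were (59.3%, 40.7 to 75.5%). With each peak given only to its nearest start site, the counts were 1 of 11 and 6 of 27 (22.2%). At MED6 (gap 19 bp) and TfIIA-L (105 bp) the peak lay at an internal start site and the partner was unbound. With 1 start site per gene the counts were 1 of 11 and 15 of 27 (55.6%). Over all protein-coding genes the shares were 29.1% and 38%, and the medians 263 and 228 bp. The gap classes were chosen after the values were seen. Taf10 and Taf10b (45 bp apart), MED20 and Trf (47 bp) and Taf12 and Ho (53 bp) are close pairs with no reproducible peak.

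Most of these genes have 1 start site in the annotation. Of 57 such genes, 21 were bound (36.8%), against 14.6% of all protein-coding genes with 1 start site. Of the 6 with more, 4 were bound, against 32.4%.

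A core promoter element found at housekeeping genes of the fly occurred at 14 of the 38 unbound members (36.8%) and at 2 of the 25 bound ones (8%). This was core promoter motif 1, searched as GGTCACACT on both strands within 100 bp of the gene's 5′ end. It occurred at 16 of the 63 genes (25.4%) and at 5.28% of all protein-coding genes. Of the 16, 2 were bound (12.5%: MED8 and Taf1). Of the 47 genes without it, 23 were bound (48.9%). Without replicate 2 the counts were 4 of 16 (25%) and 16 of 47 (34%), and with the nearest start site only they were 1 of 16 and 12 of 47 (25.5%). With a limit of 1000 bp, or any overlap of the peak with the window, they were 4 of 16 (25%) and 23 of 47 (48.9%). MED15 and MED19, which hold the motif and lay just beyond 500 bp, were then added. Over all protein-coding genes the order was the other way, 25.7% bound with the motif and 19% without. The comparison at start sites was chosen after the values were seen and was not tested.

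The copies lay at the start site itself. Of 16 copies, 14 were on the strand of the gene and 14 lay within 25 bp of its start. By complex, the unbound genes with the motif were 8 of Mediator (MED10, MED11, MED15, MED19, MED20, MED22, MED23 and MED24), 2 of TFIID (Taf4 and Taf5) and 4 of the polymerase (Polr2D, Polr2G, Polr2I and Polr2L). No TfII gene held it. The window of 50 bp gave 14 genes and 2 bound, and that of 200 bp gave 16 and 2.

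Copies at 7 of these genes are shown in dm6, with 10 bases either side, to let the shared letters be compared; capitals mark the motif, and the sequence is written on the strand that holds it. Taf1 is bound, and the others are not. They lie at chr3L:18745837-18745865 for MED11 (plus), chrX:928122-928150 for MED22 (plus), chr3L:8191277-8191305 for MED24 (plus), chr2L:8072823-8072851 for MED20 (minus), chr3R:14309080-14309108 for Polr2I (plus), chr3L:16113213-16113241 for Taf4 (plus) and chr3R:6646894-6646922 for Taf1 (plus).
MED11: ctcgtgttctGGTCACACTgttatctggt
MED22: gaaaatacgtGGTCACACTgtacatataa
MED24: aagatacctcGGTCACACTgagcgctgct
MED20: agtcagcactGGTCACACTggacgctttt
Polr2I: gccttgccacGGTCACACTttcgccaatt
Taf4: tgtcgccaacGGTCACACTgcacaactcg
Taf1: gtccatcgacGGTCACACTtacgcgtgtg

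For the DNA replication-related element TATCGATA, another element of housekeeping promoters, the bound shares with and without it were close. It occurred at the start of 10 of the 63, and 4 of these were bound (40%: MED8, MED17, MED25 and Taf7), against 39.6% of those without it. Over all protein-coding genes, 30% with it and 18.4% without it were bound. The 10 genes are too few to show or exclude a difference of that size. The element occurred at 7.83% of all protein-coding starts. At the summits it was found at 1 of 25 (MED8), against 7.25% of all promoter peaks, and GGTCACACT at 0 of 25, against 3.06%. A count of 0 in 25 says only that these letters were not in these windows.

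Of the other letters searched, most were less frequent at these summits than at promoter peaks in general, and none of these differences was tested. The GAGA element GAGAGA occurred at 0 of 25 summits (9.09% of promoter peaks and 8.35% of all starts), CAGCTG at 2 (MED25 and Polr2A; 12.6% and 13.8%), TCAGT at 7 (32.2% and 42.9%) and CGATA, which lies within TATCGATA, at 9 (40.8% and 39.3%). ACAGTGG occurred at 2 summits, those of TfIIA-L and MED21, which is 8% of the 25. Its share was 5.9% of all promoter peaks and 2.11% of all protein-coding starts.

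The windows at TfIIA-L and MED21 are shown in dm6 because they carry ACAGTGG near the summit, a choice made after the motif counts were seen; capitals mark its reverse complement CCACTGT. TfIIA-L lies at chr3R:27253183-27253372 on the plus strand, in an intron, and MED21 at chr3L:25115947-25116125 on the minus strand, between genes.
TfIIA-L: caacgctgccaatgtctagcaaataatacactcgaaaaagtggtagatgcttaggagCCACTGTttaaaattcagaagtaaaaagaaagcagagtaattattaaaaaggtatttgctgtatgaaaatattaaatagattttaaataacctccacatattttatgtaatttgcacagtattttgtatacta
MED21: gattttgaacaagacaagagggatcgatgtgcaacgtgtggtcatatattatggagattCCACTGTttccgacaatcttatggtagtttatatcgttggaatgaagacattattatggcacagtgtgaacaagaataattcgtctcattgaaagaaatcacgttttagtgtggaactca

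**Figure D5:**
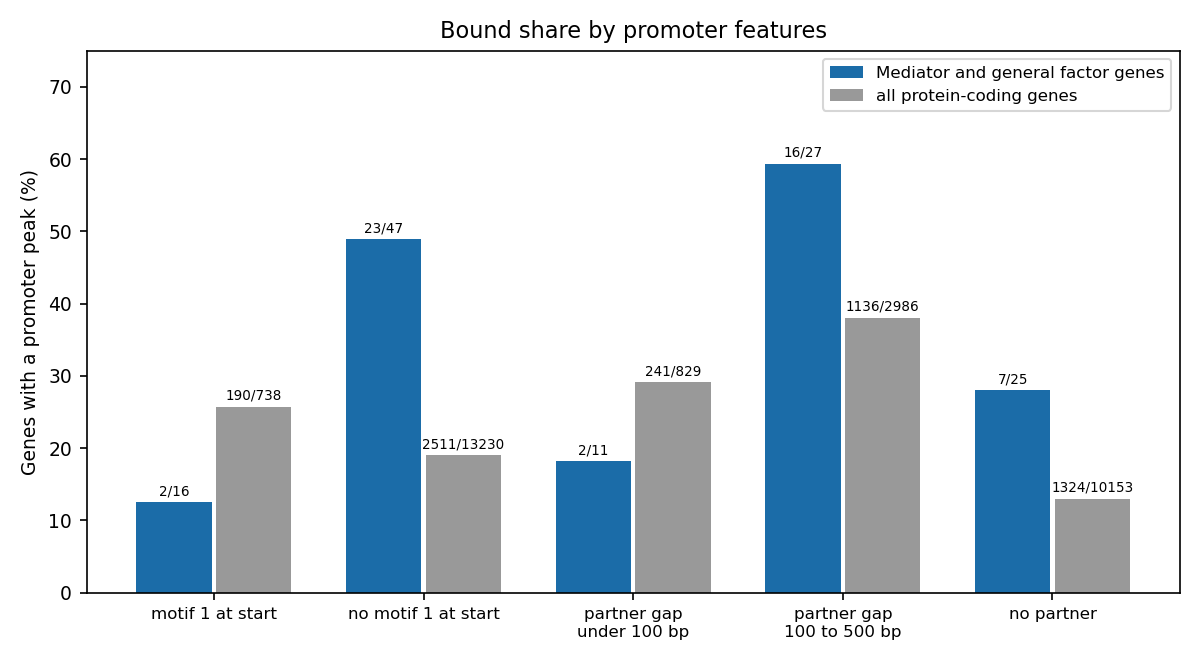
Share of genes with a promoter peak (%) by promoter feature, for the Mediator and general factor genes (blue) and all protein-coding genes (grey), with counts above the bars. Among the former, 2 of 16 with motif 1 and 23 of 47 without it were bound, and 16 of 27 with a partner gap of 100 to 500 bp against 2 of 11 with a smaller gap.

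Shares among genes that work beside these complexes ran from 0 to 50%, against 19.3% of all protein-coding genes. In TFIIH, which opens the promoter and phosphorylates the polymerase, 5 of 10 were bound (50%), with signals of 808 at Ssl1 (rank 32, shared with Chro), 210 at Tfb5, 88.4 at the kinase Cdk7, 69.6 at CycH and 61.4 at Tfb1. In the Mediator kinase module 1 of 4 was bound (skd, 244), and kto, Cdk8 and CycC were not. The TBP-related factors Trf and Trf2 (0 to 65.8%) and the testis Taf paralogues can, mia, nht and sa (0 to 49%) had no peak. Lists this short can give 0 at the share of all genes.

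In the pausing and elongation list 5 of 12 were bound (41.7%), namely Nelf-E (295, shared with RpL14), Cdk12 (234), Spt6 (139), spt4 (135) and CycK (78.9). In SAGA, a histone acetyltransferase coactivator, 6 of 13 were bound (46.2%), with Gcn5, its acetyltransferase, at 508, Ada3 at 214, Spt3 at 171, Ada2b at 146, Nipped-A at 64.2 and wda at 59.6. Integrator had 4 of 11 (36.4%), namely IntS6 at 380, IntS10 at 324, IntS9 at 233 and IntS3 at 106. RNA polymerases I and III had 5 of 17 (29.4%), with the highest signals at Polr3E (212) and Polr1D (181). The intervals of TFIIH (23.7 to 76.3%) and SAGA (23.2 to 70.9%) lay above the 19.3% of all genes. That of the pausing and elongation list (19.3 to 68%) reached it, and the intervals of the other lists included it. No difference between these lists and the 63 genes, or all genes, was tested.

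The share of bound members stayed above that of all protein-coding genes under each call rule tried. With a limit of 200 bp, 22 were bound (34.9%) against 14.4% of all genes, without MED25, MED8 and Taf2. With 1000 bp, 27 were bound (42.9%) against 21.8%, with MED15 and MED19 added. Counting any overlap of the peak with the window gave the same 27 genes (42.9%) against 20.5%. With the strongest 1734 peaks, 19 were bound (30.2%) against 12.7%. With q under 0.05, 23 were bound (36.5%) against 17.8%. The reproducible and the pooled list each held 3011 such regions and gave the same members, so they count as 1 check. With 1 start site per gene 23 were bound (36.5%) against 17.4%. Peaks overlapping a region of each replicate gave 22 (34.9%) against 18.9%.

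Replicate 3 alone, with its 3469 strongest regions, gave 20 bound members (31.7%) against 19.7% of all genes. Of these 20, 18 were bound in the main call. Replicate 3 alone added MED24 and Taf4. Replicate 2 alone gave 24 (38.1%) against 21.1%, with 23 shared, and added Tbp. Calls at MED21, MED25, MED6, MED7, Polr2A, Taf2 and Taf8 were lost without replicate 2, and calls at Polr2A and TfIIEalpha without replicate 3.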

How the data were processed

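Chromatin immunoprecipitation with sequencing was done by the submitters on 2 biological replicates of 1 group, per the labels. The authors deposited peak lists on dm6, derived per the files' notes from alignments and 1 further file that the notes do not describe: regions of each replicate, regions of the pooled replicates (30000 each), and 3469 peaks kept by the irreproducible discovery rate. Aligner and caller: not given in the sources used here. Each region's deposited signal is the authors' value of unstated scale. The deposited −log10 q-value column was read by the standard narrowPeak column order and served only to apply the threshold of 0.05. The dm3 lists and the control experiment named in the labels were not used here.

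Gene models came from Ensembl release 115 (BDGP 6.54), sequence from RefSeq. Bound genes were counted with Python 3.11.15, pandas 2.3.3, numpy 2.4.6 and scipy 1.17.1, and the counting was tested on simulated data. Coordinates are counted from 1, and overlaps needed at least 1 bp. Symbols marj and Nelf-B matched no gene. Every member was named, with related genes from set lists where bound, except that for RNA polymerases I and III only the highest signals are given and 1 gene is not reported here; sequences printed were the 3 highest windows with no exon at the summit, motif 1 copies at start sites, and the windows that hold ACAGTGG. Members and lists were chosen with earlier results of these data known. The replicate lists shared 0 regions with identical coordinates and were taken as separate libraries.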

Additional observations from a re-analysis of the deposited data

How the results depend on the processing

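Counts of bound genes were recomputed under 11 other call rules, of which 2 (the nearest start site only, and peaks overlapping a region of each replicate) were chosen after seeing the data. Giving each peak only to its nearest start site lowered the members bound from 25 to 13, Mediator from 11 to 5, TFIID from 6 to 3 and the polymerase from 5 to 3, since 12 summits lay nearer to another gene. The other 10 rules kept the count of members within 1.5 times. Among them, q under 0.05 gave the same members in the reproducible and the pooled list, so those 2 rules are 1 check. With 1 replicate left out in turn, members bound ranged from 20 to 24, Mediator genes from 8 to 11, TFIID genes from 5 to 7 and TfII genes from 2 to 3, and polymerase genes stayed at 4. The median signal ran from 164 to 175 under 7 rules, within the interval of 109 to 234 around it. Bound genes with motif 1 numbered 1 to 4 of 16 (without it 12 to 23 of 47), and bound genes with a partner gap under 100 bp 0 to 2 of 11, so those contrasts rest on few genes. No paired analysis was possible because there was 1 group. The depth of the libraries is unknown, so an unbound call says only that no reproducible peak was listed there.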

Other observations

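The members were spread over the chromosomes. On 3R 12 of 21 were bound, on 3L 6 of 15, on 2L 3 of 11, on 2R 2 of 8, on X 2 of 6, and on chromosome 4 none of 2 (0). The share of all protein-coding genes bound was 21.9% on 3R, 21.4% on 3L, 17.2% on 2L, 16.2% on 2R, 19.9% on X and 13.8% on chromosome 4. The high count on 3R was seen only after the values were known, and it was not tested.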
